A study of Homo sapiens with 48 samples.

Results

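Transcript levels of 10 genes of the PARP family, of poly(ADP-ribose) turnover or of sensitivity to PARP inhibitors were followed in PSN1 cells with acquired resistance to Talazoparib. These were PARP1, PARP2, PARP3, PARP4, the tankyrases TNKS and TNKS2, the glycohydrolase PARG, the repair scaffold XRCC1, the chromatin remodeler CHD1L and SLFN11. They were taken by gene symbol from a table of 20241 genes, and all 10 were found and passed the filter on low values. PSN1 is a pancreatic cancer cell line, labelled wild type in genotype. RNAseq was run on parental cells without treatment (day 0), on TalaR-M cells maintained in 50 nM Talazoparib (4 months), and on TalaR-DF cells, which are TalaR cells kept for 4 weeks in drug-free media. TalaR-DF cells stand for a re-sensitized state, since the resistance of PSN1 cells was largely lost on withdrawal. The sample labels give day 0 for TalaR-DF cells. Whether the TalaR line is a clone or a pool is not given in the sources used here. Each group had 3 replicates. Nothing in the labels says that the replicates were separate cultures, and TalaR-M and TalaR-DF cells come from the same selection, so the p-values below measure the spread between samples of 1 selected line. The question of these comparisons is whether resistance, or its loss after withdrawal, goes with another supply of the drug target and of the proteins around it.

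PARP1 and PARP2 bind DNA breaks and use NAD+ to build chains of poly(ADP-ribose) on themselves, histones and repair factors. The chains recruit XRCC1 and CHD1L and are taken down by PARG. Talazoparib blocks the catalytic site of PARP1 and PARP2 and holds the enzymes on DNA, a state called trapping, which makes PARP1 both the target of the drug and a source of its toxicity. The tankyrases are poly(ADP-ribose) polymerases that act on AXIN proteins, telomeres and the spindle. PARP3 adds single ADP-ribose units at breaks, and PARP4 is found in the vault particle. SLFN11 blocks stressed replication forks, and cells without it are known to tolerate PARP inhibitors better.

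RNAseq of the 9 libraries gave between 12710730 and 14168340 reads per parental library on genes above 1 CPM, between 8387755 and 14973847 per TalaR-M library, and between 12213605 and 13936867 per TalaR-DF library. Values are log2 CPM, reads scaled to library size with a small prior count, and a value of 0 stands for at most 1 CPM. TalaR-M replicate 2 had the lowest depth and stood apart from the other libraries. Set against the average of the other 2 TalaR-M libraries, it was higher by a median of 1.43 on the log2 scale among the 10% shortest transcripts, and the median difference was -1.45 among the 10% longest. Comparisons with TalaR-M cells are therefore given with all libraries and without it. Of the epithelial markers, KRT8 lay between 9.09 and 11.4 log2 CPM and EPCAM between 4.80 and 6.21, while CDH1 (E-cadherin) was at 0 in all 9 libraries. CD3E and VWF were also at 0 throughout. Markers of other cell types moved with the groups. The summed CPM of 4 fibroblast markers ran from 386 to 402 in parental, 288 to 420 in TalaR-M and 32.8 to 37.5 in TalaR-DF libraries, that of 3 leukocyte markers from 11.1 to 14.7, 4.14 to 7.11 and 1.18 to 2.55, and that of 3 endothelial markers from 14.4 to 15.1, 4.02 to 5.91 and 2.92 to 3.24. The fibroblast sum covers members that went opposite ways in TalaR-M cells, where mean log2 CPM was 8.47 for COL1A1 and 1.55 for DCN against 6.50 and 0 in parental cells, but 0 for COL1A2 and 3.22 for PDGFRB against 7.86 and 6.15. In the leukocyte list CD14 fell, with mean log2 CPM of 3.72 in parental, 1.77 in TalaR-M and 0.48 in TalaR-DF cells. PTPRC went the other way in TalaR-M cells, at 0, 0.87 and 0.02. The summed CPM of 8 epithelial markers ran from 1126 to 1182, 1745 to 5821 and 984 to 1126. Their part in the results was not tested.

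Promoters of 4 of the genes are shown first: PARP1 as the drug target, PARP2 and PARG as the members with the highest rises in TalaR-DF cells, and SLFN11 as the member whose group means lay furthest apart. The sequences come from RefSeq (GRCh38.p14), of which entries for 8 of the 10 genes were used. Promoters of TNKS and PARP4 were not examined, which does not mean that RefSeq lacks them. The sequences shown run from 250 bases before to 50 bases after the start site, 5′ to 3′ on the strand of the gene. Capitals mark matches on either strand to the short motifs searched, none of which overlap. The GC box, GGGCGG, was present in 44.9% of 34796 RefSeq promoters of the same length. The CCAAT box was present in 34.6%. The core bound by ETS factors, CCGGAAG, was present in 10.2%. The E-box of the kind bound by SNAI factors, CAGGTG, was present in 20.6%, and the E2F type motif, TTTCCCGC, in 1.63%.
PARP1 (chr1:226408044-226408343, minus strand): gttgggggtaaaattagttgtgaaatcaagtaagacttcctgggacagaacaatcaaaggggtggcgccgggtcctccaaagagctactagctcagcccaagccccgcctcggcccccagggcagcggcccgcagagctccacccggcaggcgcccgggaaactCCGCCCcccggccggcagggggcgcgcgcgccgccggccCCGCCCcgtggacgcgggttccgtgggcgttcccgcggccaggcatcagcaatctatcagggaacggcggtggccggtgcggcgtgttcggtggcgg
PARP2 (chr14:20343385-20343684, plus strand): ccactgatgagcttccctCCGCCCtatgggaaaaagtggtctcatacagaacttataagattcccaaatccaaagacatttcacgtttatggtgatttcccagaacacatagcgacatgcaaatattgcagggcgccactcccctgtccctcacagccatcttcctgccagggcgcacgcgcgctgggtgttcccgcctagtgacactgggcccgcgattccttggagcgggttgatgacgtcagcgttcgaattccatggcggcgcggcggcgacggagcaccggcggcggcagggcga
PARG (chr10:49941978-49942277, minus strand): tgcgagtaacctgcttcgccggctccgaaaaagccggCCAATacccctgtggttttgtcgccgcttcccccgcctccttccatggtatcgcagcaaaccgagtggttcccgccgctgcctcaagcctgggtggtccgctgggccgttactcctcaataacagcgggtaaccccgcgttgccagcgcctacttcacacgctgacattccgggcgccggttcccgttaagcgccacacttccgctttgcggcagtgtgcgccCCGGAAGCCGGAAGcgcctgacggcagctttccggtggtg
SLFN11 (chr17:35373572-35373871, minus strand): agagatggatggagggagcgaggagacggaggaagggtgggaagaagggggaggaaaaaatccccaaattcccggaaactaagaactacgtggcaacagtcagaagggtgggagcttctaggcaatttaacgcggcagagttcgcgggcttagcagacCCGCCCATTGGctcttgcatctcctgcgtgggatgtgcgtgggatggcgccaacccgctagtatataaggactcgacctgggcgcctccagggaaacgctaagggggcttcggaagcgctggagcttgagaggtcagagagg
PARP1 had 2 GC boxes and no CCAAT in this window, and PARP2 had 1 GC box far upstream. PARG had 1 CCAAT and 2 ETS cores side by side just after its start site. SLFN11 had 1 GC box and 1 CCAAT that touch without overlap. No E-box of the SNAI type was found in these 4 windows, and 1 of the 3 annotated start regions of CHD1L held it.

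PARP1 was by far the most abundant of the 10 transcripts. Compared per kilobase of transcript, so that long and short genes can be ranked, parental cells held PARP1 at 7.06 ± 0.033 log2 CPM per kb (SD, n = 3), followed by CHD1L at 5.19 ± 0.028, XRCC1 at 4.80 ± 0.025 and PARP4 at 4.67 ± 0.022. PARP2 stood at 3.95 ± 0.076 on this scale. PARP3 at 3.69 ± 0.035 and TNKS2 at 3.67 ± 0.025 did not differ beyond their spread. PARG at 3.10 ± 0.068 and TNKS at 2.74 ± 0.12 were lower, and SLFN11 was near the detection limit at -1.82 ± 0.24. PARP1 thus exceeded PARP2 by 8.60-fold and PARG by 15.6-fold per kb in parental cells.

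After drug withdrawal, 8 of the 10 genes differed from parental cells at an adjusted p under 0.05 (limma, Benjamini-Hochberg over 12165 genes), with 5 higher and 3 lower. This has to be read against a background of 66.3% of all genes called in that comparison, 34.2% higher and 32% lower, so that the count itself does not set these genes apart. The differences were moderate, and no member was called at 2-fold, against 11.6% of all genes. PARP2 and PARG rose most, TNKS fell most, and PARP1 itself moved by 0.12 on the log2 scale. The value ranges of the 2 groups were separate for 9 of the 10 genes, against 70.2% of all genes. The median difference was 0.02 over the 10 genes and 0.02 over all genes. In such bulk samples fewer cells with a transcript and less of it per cell cannot be told apart.

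**Figure D1:**
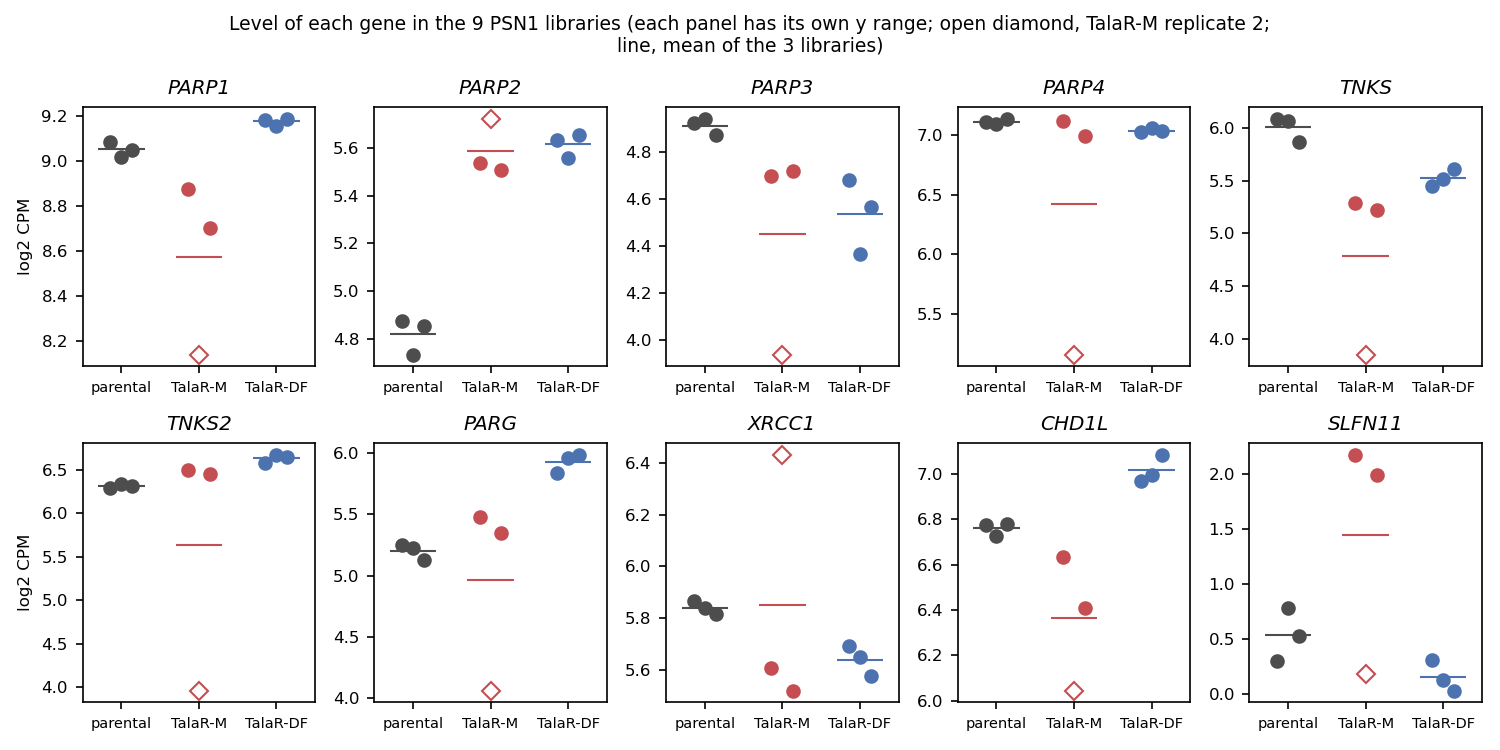
Level in log2 CPM (y axis, a separate range in each panel) of the 10 genes in the 3 parental, 3 TalaR-M and 3 TalaR-DF libraries of PSN1 cells. Each point is a library, the line is the mean of the 3, and the open diamond is TalaR-M replicate 2, which lies below the other 2 TalaR-M libraries for 8 genes and above them for PARP2 and XRCC1.

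PARP1, on chr1:226360691-226408093, makes most of the poly(ADP-ribose) in damaged cells. Its level was 9.08, 9.02 and 9.05 log2 CPM in the parental libraries, 8.87, 8.14 and 8.70 in TalaR-M cells, and 9.18, 9.16 and 9.19 in TalaR-DF cells. All 3 TalaR-M libraries lay under all parental libraries, and all TalaR-DF libraries lay above them. The rise in TalaR-DF cells was 0.12 ± 0.049 (SE, adjusted p = 0.0403), a 1.09-fold change. The call was lost with median-ratio rescaling (0.09, adjusted p = 0.113), among other fits, and when any parental library or TalaR-DF replicate 3 was left out (adjusted p between 0.0587 and 0.147). In TalaR-M cells PARP1 was 0.48 lower on the log2 scale in the fit of all libraries (log2 fold change -0.48 ± 0.19, adjusted p = 0.105), which missed the threshold. Leaving out replicate 2 gave -0.26 ± 0.068, which passed it (adjusted p = 0.00572), a level of 0.834 times that of parental cells. It also passed without replicate 1 (-0.63, adjusted p = 0.0434). Against TalaR-DF cells, TalaR-M cells differed by -0.60 ± 0.19 (adjusted p = 0.0781) with all libraries and by -0.39 ± 0.068 (adjusted p = 0.000655) without replicate 2, or -0.75 (adjusted p = 0.0392) without replicate 1. PARP1 was still the most abundant of these genes in every library, and its lowest library held 2127 of its reads.

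PARP2, on chr14:20343635-20357904, is the closest relative of PARP1 and is trapped by the drug as well. It had 4.88, 4.74 and 4.86 log2 CPM in parental cells, 5.54, 5.72 and 5.51 in TalaR-M cells, and 5.63, 5.56 and 5.65 in TalaR-DF cells. Every TalaR-M and TalaR-DF library lay above every parental library, and TalaR-M replicate 2 was the highest of all. PARP2 was the only member called in the same direction against parental cells in all fits that were run, at an adjusted p under 0.05. It rose by 0.77 ± 0.12 in TalaR-M cells (adjusted p = 0.00279), by 0.70 ± 0.075 without replicate 2 (adjusted p = 9.14e-06), and by 0.79 ± 0.069 in TalaR-DF cells (adjusted p = 1.37e-06). As a fold these were 1.70, 1.62 and 1.73. Both comparisons share the parental libraries. TalaR-M and TalaR-DF cells were not told apart, with a difference of -0.03 (95% CI -0.31 to 0.26) or -0.09 (-0.26 to 0.07) without replicate 2.

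The balance of the 2 trapped enzymes is given as a ratio in each library, with no test. The ratio of PARP1 to PARP2 per kb was 8.48, 8.93 and 8.41 in the parental libraries, 4.64, 2.46 and 4.20 in the TalaR-M libraries, and 5.39, 5.56 and 5.32 in the TalaR-DF libraries. The ranges of the 3 groups were separate, and the lowest value was that of TalaR-M replicate 2. In TalaR-DF cells the lower ratio came with more PARP2, while in TalaR-M cells the level of PARP1 was under that of parental cells as well.

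**Figure D2:**
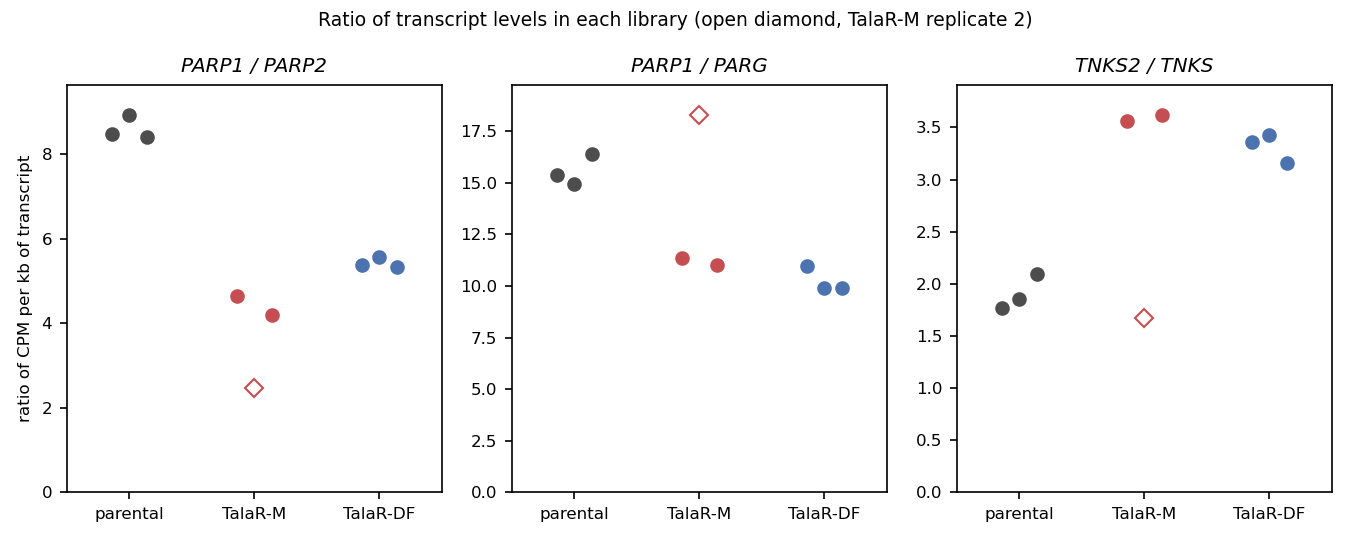
Ratio of CPM per kb of transcript (y axis, starting at 0) of PARP1 to PARP2, PARP1 to PARG and TNKS2 to TNKS in each of the 9 libraries, by group. Points are libraries and the open diamond is TalaR-M replicate 2. PARP1 to PARP2 was 8.41 or more in parental libraries and 5.56 or less in all TalaR-M and TalaR-DF libraries.

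PARG, on chr10:49818279-49942027, removes the chains that PARP1 and PARP2 make. Its level was 5.25, 5.23 and 5.12 log2 CPM in parental cells, 5.48, 4.06 and 5.35 in TalaR-M cells, and 5.84, 5.96 and 5.99 in TalaR-DF cells. TalaR-DF libraries were the highest throughout, and TalaR-M replicates 1 and 3 lay between the other groups, while replicate 2 was the lowest library. PARG rose by 0.73 ± 0.067 in TalaR-DF cells (1.66-fold, adjusted p = 2.14e-06). In TalaR-M cells the difference from parental cells was -0.24 ± 0.34 (adjusted p = 0.623) with all libraries and turned to 0.22 ± 0.079 (adjusted p = 0.0333) without replicate 2. TalaR-M cells held less PARG than TalaR-DF cells without replicate 2 (-0.51 ± 0.079, adjusted p = 0.000252), and the difference of -0.97 ± 0.34 with all libraries was not called (adjusted p = 0.105). The ratio of PARP1 to PARG per kb lay between 14.9 and 16.4 in parental libraries and between 9.88 and 11.0 in TalaR-DF libraries. The TalaR-M libraries had 11.3, 18.3 and 11.0.

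PARG starts 26 bases from TIMM23B, a gene of the mitochondrial import machinery that runs the other way. TIMM23B was also higher in TalaR-DF cells than in parental cells, by 0.91 ± 0.13 (adjusted p = 8.01e-05). With all libraries, TIMM23B was not called in TalaR-M against parental cells (0.37 ± 0.33, adjusted p = 0.434) or against TalaR-DF cells (-0.55 ± 0.33, adjusted p = 0.283). The start of PARP3 lies 459 bases from that of RRP9, a ribosome biogenesis gene, and there the 2 genes moved apart. RRP9 rose by 1.14 ± 0.063 in TalaR-DF cells (adjusted p = 3.01e-08) where PARP3 fell. PARG has the annotated pseudogene PARGP1, PARP1 has 2 and PARP4 has 3, and reads of these genes could be split with their copies.

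TNKS, on chr8:9555912-9782346, and TNKS2, on chr10:91798426-91865475, code for the tankyrases and went in opposite directions in TalaR-DF cells. TNKS had 6.09, 6.07 and 5.87 log2 CPM in parental cells, 5.29, 3.85 and 5.22 in TalaR-M cells, and 5.45, 5.52 and 5.61 in TalaR-DF cells. All TalaR-M and TalaR-DF libraries were under all parental libraries, and all TalaR-M libraries under all TalaR-DF libraries. TNKS fell by 0.48 ± 0.074 in TalaR-DF cells (adjusted p = 0.000125). In TalaR-M cells the log2 fold change was -1.22 ± 0.35 (adjusted p = 0.0378), and -0.75 ± 0.084 (adjusted p = 1.23e-05) without replicate 2, a level of 0.593 times that of parental cells. The call with all libraries was narrow and was lost in several other fits, among them those that left out any single parental library (adjusted p between 0.0932 and 0.120) or any single TalaR-DF library (between 0.0654 and 0.0659). Between TalaR-M and TalaR-DF cells the difference was not called with all libraries (-0.74 ± 0.35, adjusted p = 0.194) or with the trend on transcript length removed (-0.22, adjusted p = 0.131), and was called without replicate 2 (-0.27 ± 0.084, adjusted p = 0.0190).

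TNKS2 had 6.29, 6.33 and 6.32 log2 CPM in parental cells, 6.50, 3.96 and 6.45 in TalaR-M cells, and 6.57, 6.67 and 6.65 in TalaR-DF cells. TalaR-M replicate 2 was far under every other library, and the remaining TalaR-M and all TalaR-DF libraries were all above the parental ones. TNKS2 rose by 0.32 ± 0.052 in TalaR-DF cells (adjusted p = 0.000211). The TalaR-M difference from parental cells was -0.67 ± 0.60 (adjusted p = 0.423) and turned to 0.16 ± 0.059 (adjusted p = 0.0316) without replicate 2. Against TalaR-DF cells it was -0.99 ± 0.60 (adjusted p = 0.278), or -0.16 ± 0.059 (adjusted p = 0.0470) without replicate 2. The ratio of TNKS2 to TNKS per kb was between 1.77 and 2.10 in parental libraries and between 3.16 and 3.43 in TalaR-DF libraries. The TalaR-M libraries had 3.56, 1.67 and 3.62, so that replicate 2 lay under the parental range and the others above it.

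CHD1L, on chr1:147242684-147295762, is an ATPase that poly(ADP-ribose) recruits to chromatin and that helps to release trapped PARP. Its level was 6.78, 6.73 and 6.78 log2 CPM in parental cells, 6.63, 6.04 and 6.41 in TalaR-M cells, and 6.97, 6.99 and 7.09 in TalaR-DF cells. The 3 groups did not overlap, with TalaR-M lowest and TalaR-DF highest. CHD1L rose by 0.26 ± 0.051 in TalaR-DF cells (adjusted p = 0.000929). The difference of TalaR-M from parental cells was -0.40 ± 0.16 (adjusted p = 0.108), and -0.24 ± 0.073 (adjusted p = 0.0140) without replicate 2 or -0.53 (adjusted p = 0.0369) without replicate 1. CHD1L was the only member called between TalaR-M and TalaR-DF cells with all libraries (-0.65 ± 0.16, adjusted p = 0.0336), where 12% of all genes were called. That call did not hold when any parental or TalaR-DF library or TalaR-M replicate 3 was left out (adjusted p between 0.0638 and 0.129), while without TalaR-M replicate 2 it did (-0.49 ± 0.073, adjusted p = 0.000180).

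XRCC1, on chr19:43543311-43575527, holds the enzymes of single-strand break repair together. It had 5.86, 5.84 and 5.81 log2 CPM in parental cells, 5.61, 6.43 and 5.52 in TalaR-M cells, and 5.69, 5.65 and 5.58 in TalaR-DF cells. TalaR-M replicate 2 was the highest library, and all other TalaR-M and TalaR-DF libraries were under the parental ones. XRCC1 fell by 0.20 ± 0.059 in TalaR-DF cells (adjusted p = 0.0101). In TalaR-M cells the difference was 0.01 ± 0.23 (adjusted p = 0.974) and turned to -0.28 ± 0.068 (adjusted p = 0.00403) without replicate 2.

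PARP3, on chr3:51942363-51948867, had 4.92, 4.94 and 4.87 log2 CPM in parental cells, 4.70, 3.94 and 4.72 in TalaR-M cells, and 4.68, 4.37 and 4.57 in TalaR-DF cells. Every TalaR-M and TalaR-DF library was under every parental library. PARP3 fell by 0.38 ± 0.089 in TalaR-DF cells (adjusted p = 0.00300), and the TalaR-M difference was not called with all libraries (-0.46 ± 0.22, adjusted p = 0.167) or without replicate 2 (-0.20 ± 0.098, adjusted p = 0.0936). PARP4, on chr13:24420931-24512778, had 7.11, 7.09 and 7.14 in parental cells, 7.12, 5.16 and 6.99 in TalaR-M cells, and 7.02, 7.06 and 7.03 in TalaR-DF cells. Apart from TalaR-M replicate 2, its libraries lay within a narrow band. PARP4 was not called in any of the 3 comparisons, and its difference in TalaR-DF cells was -0.08 (95% CI -0.18 to 0.03). That became a call with median-ratio rescaling (-0.11, adjusted p = 0.0459), without the filter on low values (adjusted p = 0.0265) and with the trend on transcript length removed (-0.12, adjusted p = 0.0186).

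SLFN11, on chr17:35350305-35373621, was low in all libraries and had the widest range of group means. It had 0.30, 0.79 and 0.52 log2 CPM in parental cells, 2.18, 0.18 and 2.00 in TalaR-M cells, and 0.31, 0.13 and 0.03 in TalaR-DF cells. These values rest on 17, 23 and 18 reads in the parental libraries, 70, 8 and 55 in TalaR-M cells, and 17, 14 and 12 in TalaR-DF cells. TalaR-M replicates 1 and 3 stood clear of the other 7 libraries, and replicate 2 lay with the TalaR-DF libraries. The counting intervals (95%, exact Poisson, counting error only) ran from 41.4 to 71.6 reads for TalaR-M replicate 3 and from 14.6 to 34.5 for the parental library with most reads. With all libraries the TalaR-M difference from parental cells was 0.92 ± 0.47 (adjusted p = 0.190). Without replicate 2 it was 1.55 ± 0.17 (2.93-fold, adjusted p = 1.06e-05), and 1.93 ± 0.17 (3.81-fold, adjusted p = 3.34e-06) against TalaR-DF cells, where all libraries gave 1.30 ± 0.47 (adjusted p = 0.114). In TalaR-DF cells the difference from parental cells was -0.38 ± 0.18 (95% CI -0.77 to 0.0054, adjusted p = 0.0756), which passed only without parental replicate 1 among the fits that left out a library (-0.50, adjusted p = 0.0268). At so few reads the prior count in the values understates folds.

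With all libraries, TalaR-M against parental cells thus gave 2 of the 10 genes, PARP2 higher and TNKS lower, at a background of 23.6% (10.3% higher, 13.2% lower). The groups were separate for 5 of the 10 genes, against 49.8% of all genes. Without replicate 2 it gave 8, with PARP2, PARG, TNKS2 and SLFN11 higher and PARP1, TNKS, CHD1L and XRCC1 lower, at a background of 60.2% (30.2% higher, 30% lower). TalaR-M against TalaR-DF cells gave 1 of 10 with all libraries, lower in TalaR-M cells, at a background of 12% (7.79% higher, 4.25% lower). The groups were separate for 5 of 10 genes, against 40.8%. Without replicate 2 it gave 6 of 10, with SLFN11 higher and PARP1, PARG, TNKS, TNKS2 and CHD1L lower, at a background of 48.8% (23.5% higher, 25.3% lower). Median-ratio rescaling moved the median of all genes in the TalaR-M comparison with parental cells from -0.09 to 0.01, and in that with TalaR-DF cells from -0.09 to 0.03, where it added PARP1 (-0.45, adjusted p = 0.0423) and SLFN11 (1.44, adjusted p = 0.0467) to the calls. The 10 genes had a median of -0.43 against parental cells, -0.32 after rescaling and -0.13 without replicate 2, and with rescaling PARP2 and TNKS kept their calls and directions.

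**Figure D3:**
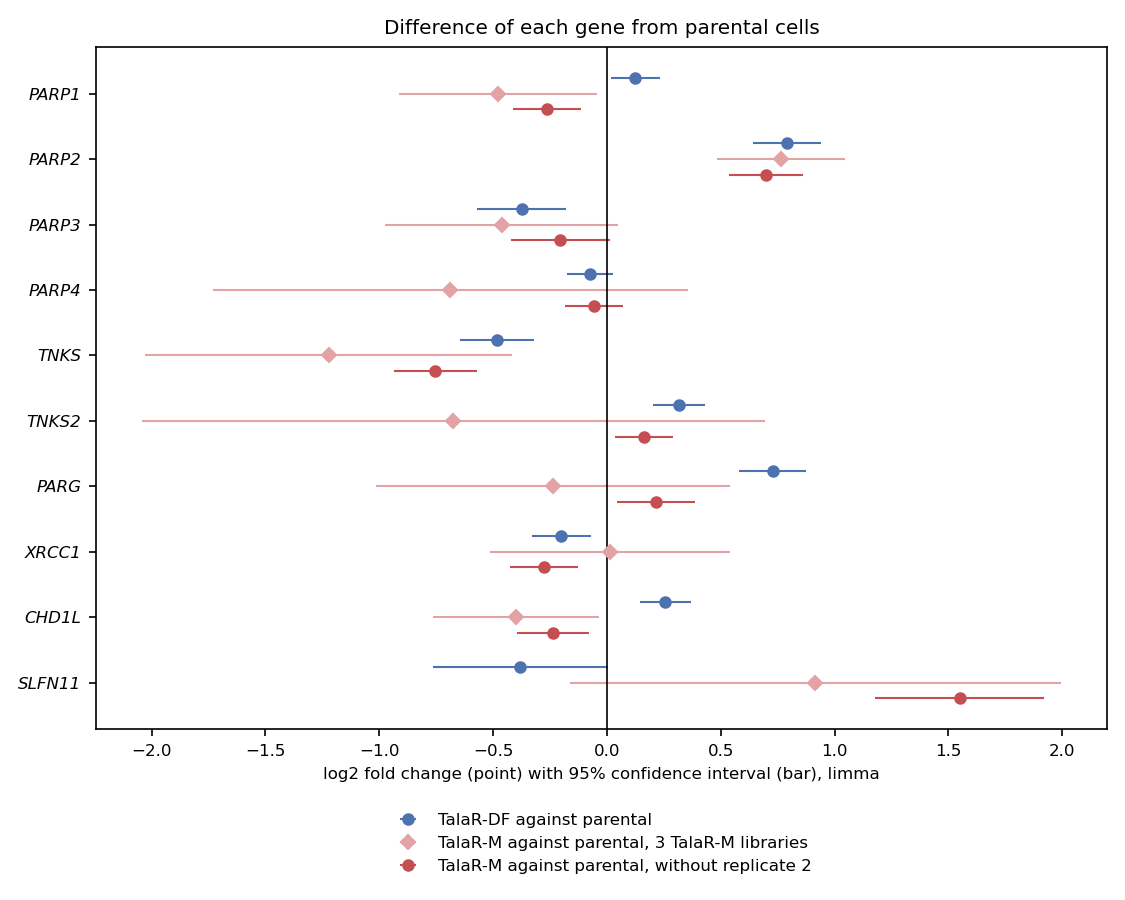
Log2 fold change from parental cells (x axis, limma) with its 95% confidence interval for each gene, in TalaR-DF cells, in TalaR-M cells with 3 libraries, and in TalaR-M cells without replicate 2. PARP2 lies right of 0 and TNKS left of 0 in all 3 fits, and the intervals of TNKS2, PARG and SLFN11 in TalaR-M cells are much wider with replicate 2 than without it.

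The members showed how TalaR-M replicate 2 departs from its group. It differed from the average of replicates 1 and 3 by 0.20 for PARP2 (1827 bases of transcript) and 0.87 for XRCC1 (2052 bases), but -1.90 for PARP4 (5437 bases), -2.51 for TNKS2 (6242 bases) and -1.41 for TNKS (9622 bases). Replicates 1 and 3 differed by 0.02 to 0.22 over the 10 genes. The correlation of this difference with log2 transcript length was r = -0.81 over the 10 genes and -0.65 over 10449 genes above 2 log2 CPM, all read from the same 3 libraries. Removing a trend on transcript length from each library gave calls for 5 members in TalaR-M against parental cells: PARP2 and SLFN11 higher, and PARP1, TNKS and CHD1L lower.

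**Figure D4:**
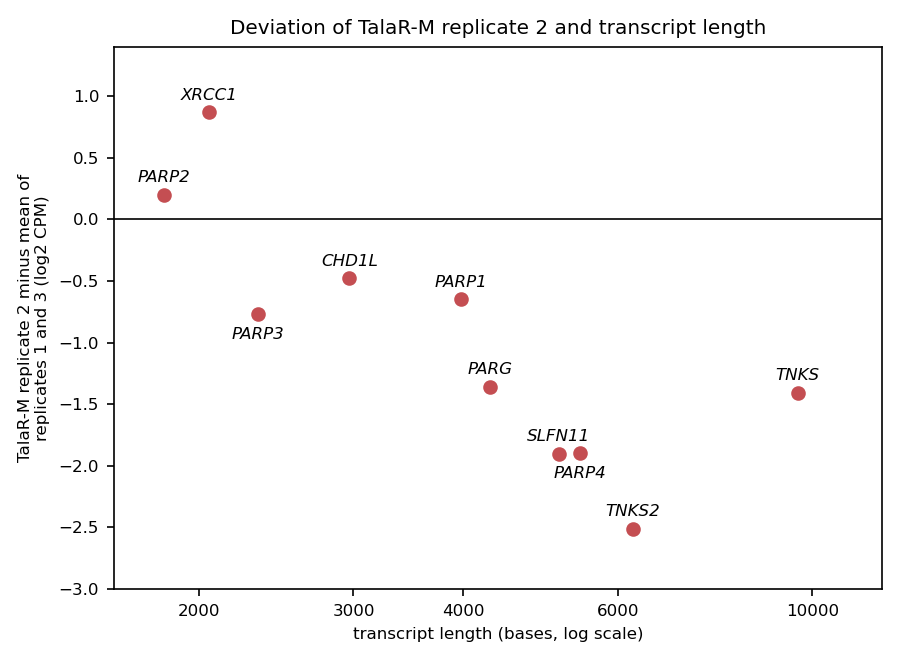
TalaR-M replicate 2 minus the average of replicates 1 and 3, in log2 CPM (y axis), against transcript length in bases (x axis, log scale), with a point for each of the 10 genes. The short transcripts of PARP2 and XRCC1 lie above 0 and all longer ones below, down to -2.51 for TNKS2.

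Genes that work with these enzymes were counted in 7 lists written from general knowledge, 73 genes in all. In TalaR-DF cells, 67 of the 73 were tested, 26 were higher and 20 lower than in parental cells. In TalaR-M cells 70 were tested, with 9 higher and 9 lower, or 22 higher and 21 lower without replicate 2. Between TalaR-M and TalaR-DF cells 5 were higher and 6 lower in TalaR-M cells, or 16 and 19 without replicate 2. These shares are to be read against the percentages of all genes called given above. Tested genes at 0 in all parental libraries (APLF, NMNAT3, AMOT, SLFN5, SLFN12L and SLFN13) could only come out higher than parental cells.

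Among enzymes of single-strand break and base excision repair, 9 of 21 were higher and 4 lower in TalaR-DF cells, where 66.3% of all genes were called. The list median was 0.15 against 0.02 over all genes. Other lists had medians of 0.14 (ADP-ribose removal), 0.17 (NAD+ supply), 0.22 (chromatin remodelers) and 0.40 (Schlafen family, 2 genes tested). The median was -0.09 for mono-ADP-ribosyltransferases and -0.05 for tankyrase partners. In TalaR-M cells 2 genes of the repair list were higher and 3 lower, or 6 and 5 without replicate 2. Of all genes, 23.6% and 60.2% were called in these fits. The list of mono-ADP-ribosyltransferases of the PARP family also holds ZC3HAV1, which lacks catalytic activity. Of the 10 genes of the list that were tested, 2 were higher and 4 lower in TalaR-DF cells. In TalaR-M cells 0 were called by limma (1 at an unadjusted p under 0.05), or 4 higher and 2 lower without replicate 2. TIPARP, which adds single ADP-ribose units and is a target of the aryl hydrocarbon receptor, rose by 1.04 ± 0.069 in TalaR-DF cells (adjusted p = 1.40e-07). Its TalaR-M difference was 0.61 ± 0.40 (adjusted p = 0.285), and 1.15 ± 0.076 (adjusted p = 1.52e-07) without replicate 2.

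**Figure D5:**
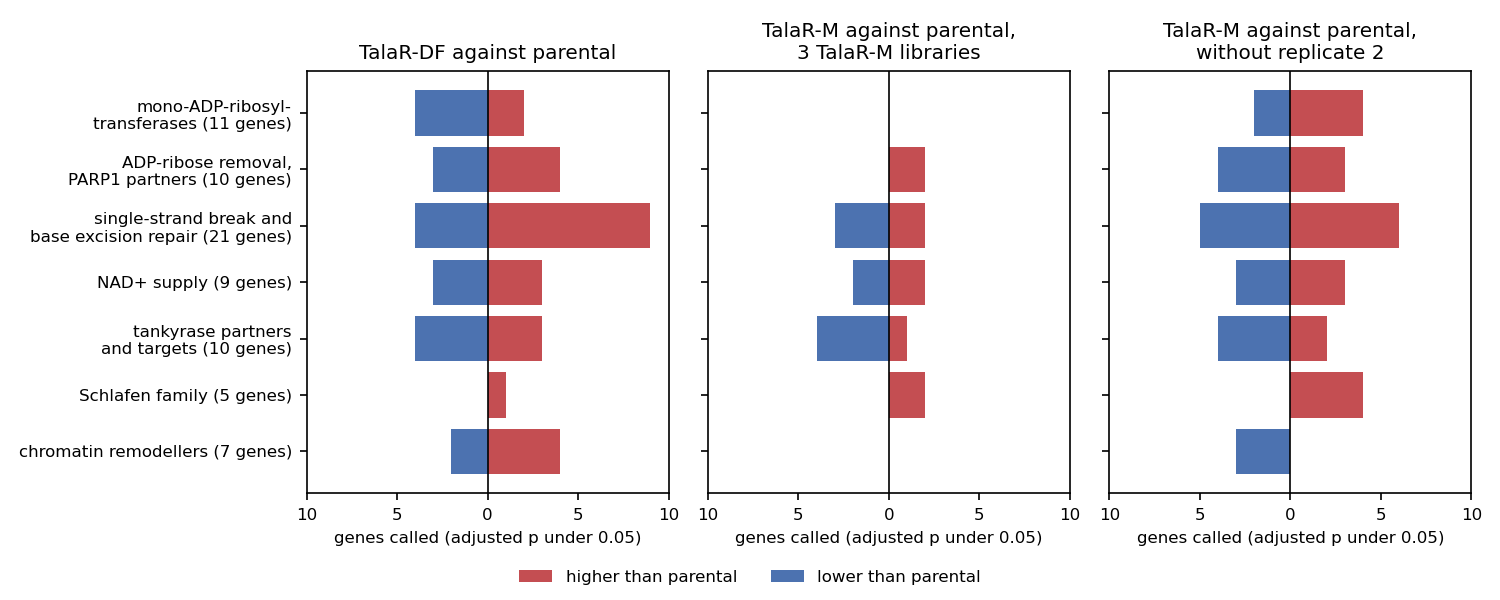
Number of genes of each list called higher (right) or lower (left) than in parental cells at an adjusted p under 0.05 (x axis, both sides count upwards from 0), for TalaR-DF cells, TalaR-M cells, and TalaR-M cells without replicate 2. The repair list is the longest, with 9 higher and 4 lower of 21 tested genes in TalaR-DF cells, and the Schlafen list has calls in the higher direction only. Of that list, SLFN5, SLFN12L and SLFN13 were at 0 in parental cells and could not be called lower.

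ADP-ribose removal and partners of PARP1 gave 4 higher and 3 lower of 9 tested genes in TalaR-DF cells, and 2 higher of 10 in TalaR-M cells (3 higher and 4 lower without replicate 2). Of all genes, 66.3%, 23.6% and 60.2% were called in these comparisons, in that order. The genes higher in TalaR-M cells include APLF, which was at 0 in all parental and TalaR-DF libraries. It passed the filter only through TalaR-M libraries and could only come out higher. MACROD2, which takes single ADP-ribose off proteins, had at most 0.28 log2 CPM in parental cells, between 0.62 and 1.71 in TalaR-M cells, and between 2.29 and 2.55 in TalaR-DF cells. The 3 groups were separate, and from parental values at or near the floor MACROD2 rose by 2.28 ± 0.15 in TalaR-DF cells (adjusted p = 1.37e-07), with a TalaR-M level below it by 1.20 ± 0.26 (log2 fold change -1.20, adjusted p = 0.0209), or -0.91 ± 0.17 (adjusted p = 0.00110) without replicate 2.

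Of 9 genes for the supply of NAD+, the substrate of active PARP enzymes, 3 were higher and 3 lower in TalaR-DF cells. In that comparison 66.3% of all genes were called. In TalaR-M cells 2 NAD+ genes were called in each direction, or 3 in each direction without replicate 2 (23.6% and 60.2% of all genes called). QPRT, which makes NAD+ precursors from tryptophan breakdown, had 4.34, 4.33 and 4.39 log2 CPM in parental cells, 0.36, 0.74 and 0.51 in TalaR-M cells, and 1.66, 1.71 and 1.46 in TalaR-DF cells. It fell by 3.82 ± 0.15 in TalaR-M cells (adjusted p = 8.80e-07) and by 2.74 ± 0.11 in TalaR-DF cells (adjusted p = 3.33e-09), and was lower in TalaR-M than in TalaR-DF cells (-1.08 ± 0.15, adjusted p = 0.00252). Without replicate 2 the TalaR-M differences were -3.92 ± 0.13 (adjusted p = 5.26e-10) and -1.18 ± 0.13 (adjusted p = 2.30e-05). In all 9 libraries the groups of QPRT were separate, TalaR-M replicate 2 included. The TalaR-M values of QPRT were near the floor, where the prior count understates folds. NMNAT2, a nicotinamide mononucleotide adenylyltransferase best known from neurons, fell by 1.61 ± 0.27 in TalaR-M cells (adjusted p = 0.00328), by 1.30 ± 0.15 without replicate 2 (adjusted p = 2.00e-05), and by 2.26 ± 0.14 in TalaR-DF cells (adjusted p = 7.48e-08). NAPRT, which starts NAD+ synthesis from nicotinic acid, rose by 1.41 ± 0.42 in TalaR-M cells (adjusted p = 0.0417), with replicate 2 the highest library at 3.59 log2 CPM, and by 1.01 ± 0.30 without it (adjusted p = 0.0117). NMRK1, a nicotinamide riboside kinase, was higher in TalaR-M than in TalaR-DF cells by 1.25 ± 0.28 (adjusted p = 0.0258), again with replicate 2 highest at 3.82, and by 0.92 ± 0.16 without it (adjusted p = 0.000564).

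Of the tankyrase partners and targets, 9 were tested, with 3 higher and 4 lower in TalaR-DF cells (66.3% of all genes called). In TalaR-M cells 1 was higher and 4 lower, or 2 and 4 without replicate 2 (23.6% and 60.2% of all genes called). AMOT, an angiomotin whose protein tankyrases mark for breakdown, was listed at 0 in all 3 parental libraries and had 4.24, 3.16 and 4.25 log2 CPM in TalaR-M cells and 1.31, 1.58 and 1.66 in TalaR-DF cells. It was called against parental cells in both (adjusted p = 3.08e-05 and 4.79e-06), and TalaR-M cells exceeded TalaR-DF cells by 2.37 ± 0.28 (adjusted p = 0.00127), or by 2.73 ± 0.14 without replicate 2 (adjusted p = 4.08e-08), where AMOT was also called against parental cells (adjusted p = 4.92e-10). With parental values at 0, AMOT could only come out higher than parental cells. In the TalaR-DF comparison it passed the filter only through the TalaR-DF libraries. SH3BP2, an adaptor protein and tankyrase substrate, fell by 1.34 ± 0.20 in TalaR-M cells (adjusted p = 0.00212), by 1.12 ± 0.098 without replicate 2 (adjusted p = 1.69e-06), and by 0.74 ± 0.068 in TalaR-DF cells (adjusted p = 2.10e-06).

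The Schlafen list, the relatives of SLFN11, had 4 tested genes in TalaR-M cells, of which 2 were higher with all libraries and 4 without replicate 2. Of all genes, 23.6% and 60.2% were called in these fits. SLFN5 and SLFN13 were at 0 in parental and TalaR-DF cells. They passed the filter only through TalaR-M libraries, so their calls could only be higher in TalaR-M cells. SLFN12L was at 0 in parental cells and could not be called lower than them either. In TalaR-DF cells 1 of 2 tested genes was higher, where 66.3% of all genes were called. SLFN5 was listed at 0 in all parental and all TalaR-DF libraries and had 3.27, 2.15 and 3.18 log2 CPM in TalaR-M cells (adjusted p = 0.000133 against parental and 0.000354 against TalaR-DF cells, or 1.88e-09 and 7.20e-09 without replicate 2). SLFN5 was clear of the other groups in TalaR-M replicate 2 as well. Of 7 chromatin remodelers related to CHD1L or recruited to damage, 4 were higher and 2 lower in TalaR-DF cells (34.2% and 32% of all genes). In TalaR-M cells with all libraries limma called 0 of them, also 0 at an unadjusted p under 0.05. Without replicate 2, 3 were lower, where 30% of all genes were called lower.

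The genes whose pattern was most like PARP1 over the 9 libraries were HNRNPA0 (r = 0.999), SRSF4 (0.997) and CCZ1 (0.997), and without TalaR-M replicate 2 HNRNPA0 (0.996), BRI3BP (0.993) and HSP90AB1 (0.989). For SLFN11 they were GAB1 (0.986), CYBRD1 (0.982) and NTN4 (0.982), and over 8 libraries BAMBI (0.992), CUEDC1 (0.992) and CPS1 (0.990). HNRNPA0 was the only gene named by both versions, and the others changed with that library. The values are Pearson's r over libraries that share depth and group, and the genes were picked from the whole table as the highest, so they carry no test.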

How the data were processed

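RNAseq of PSN1 cells (3 groups, 3 replicates each) was analysed, and the other samples of the series (48 in all) were not analysed here. The authors prepared stranded poly(A) libraries, sequenced paired reads of 150 bases, and deposited log2 CPM per gene with values under 0 set to 0. The unit was read from the values, since those under 50 CPM gave whole reads, within 0.1 of a read, in 100% of cases. The submitters' processing notes name hg38, and aligner, counter and annotation are not given in the sources used here. Columns named maintain were read as TalaR-M, and those named withdraw as TalaR-DF.

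Log2 values were compared with limma 3.58.1 (R 4.3.3) with a mean-variance trend, without an added pseudocount, over genes above 1 CPM in at least 3 libraries. TalaR-M comparisons used all 9 libraries (12471 genes) and TalaR-DF against parental its own 6 (12165 genes). A gene was called at a Benjamini-Hochberg adjusted p under 0.05. An exact two-sided permutation test of 3 against 3 cannot give a p under 0.1 and was not used. The script was tested on simulated data. Lengths and positions came from GENCODE 44 (96.0% of genes matched).

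The members and lists were chosen with earlier results of these data known. All 10 members are named. Of the lists, genes called at 2-fold or more with separate groups are named, up to the 3 highest and 3 lowest per comparison. For PARP1 and SLFN11 the 3 genes with the highest r are named. Alternatives were pseudocounts of 0.1 or 8 CPM, no filter or a minimum of 5 CPM, median-ratio rescaling, no trend, a replicate block, other groups in the fit, array weights, removal of a length trend, a 2-fold threshold, and leaving out each library. A marker of the leukocyte list is not reported here and was left out of its sum.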

Additional observations from a re-analysis of the deposited data

How the results depend on the processing

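TalaR-DF against parental gave 7 to 8 member calls when a library was left out, with 7090 to 8035 genes called over all. A fit of all 3 groups, whose spread includes TalaR-M replicate 2, gave 1 member and 2315 genes. A 2-fold threshold gave 0 members and 1417 genes, and for the TalaR-M comparisons 1 member and 1653 genes against parental and 0 and 864 against TalaR-DF. Leaving out libraries gave 1 to 8 members and 1801 to 7506 genes in TalaR-M against parental, and 0 to 6 members and 724 to 6084 genes against TalaR-DF, the highest each time without TalaR-M replicate 2. Fits of only the 2 groups gave 1 member and 1718 genes, and 0 and 509. Array weights gave 6 members and 7430 genes, and 4 and 5439. Removing the length trend gave 5 members against parental, and 4 members and 2944 genes against TalaR-DF. No filter gave 1 member against parental, and rescaling gave 3 against TalaR-DF. The cause of these changes was not tested.

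The replicate numbers showed no clear pairing of the samples (r of same-numbered deviations from -0.42 to 0.22, over 0.1 in 2 of 9 pairs). Pairs with TalaR-M libraries cannot decide this, since replicate 2 stands apart and shifts the group mean. Between parental and TalaR-DF libraries r was 0.08, 0.15 and -0.13. The replicate block gave 1 member in TalaR-M against parental, and 0 members and 999 genes against TalaR-DF.

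Directions in TalaR-M against parental turned for PARG (-0.50 to 0.22 over fits without a library), TNKS2 (-1.10 to 0.16) and XRCC1 (-0.28 to 0.18, and -0.28 with array weights). A minimum of 5 CPM left SLFN11 out. Among the 10 members, depth limits SLFN11 alone, with 8 to 70 reads, where 1 CPM is 7.54 to 15.7 reads.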
